A study of Homo sapiens with 8 samples.

Results

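Ginkgolic acid was compared with its solvent DMSO in MCF10A cells by RNA sequencing, and the comparison was described across gene families. MCF10A is an immortalised, non-tumorigenic line of human mammary epithelial cells. The 2 groups were MCF10A given 30 µM ginkgolic acid for 3 days and MCF10A given DMSO for the same time, with 2 samples each. Both groups grew in a medium with horse serum, insulin, cholera toxin, epidermal growth factor and hydrocortisone, with penicillin and streptomycin. The series holds 8 samples in 4 groups; the other 4 samples are the same treatments in a derivative line labelled NOTCH1. The labels do not say whether the 2 samples of a group came from separate cultures.

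The deposited table gives 1 pooled level per gene and group, in FPKM, a count of sequenced fragments scaled to transcript length and to library size. The members were rows that named 1 gene symbol, on chromosomes 1 to 22, X or M, with the symbol listed once and at least 5 FPKM in either group. They numbered 10378 of the 44969 single-symbol genes of the table. No level was available per sample, so no replicate error and no test exist for any value here. A gene is called higher or lower when the pooled levels were at least 2-fold apart, which is a rule of size. The depth of the libraries is unknown. Members at the edge of the rule, with a highest level of 5 to 6 FPKM, had a median log2 ratio of 0.049 (715 genes). Genes just below it, at 4 to 5 FPKM, had 0.11 (926 genes). Of these, 57 and 92 genes were listed at 0 in a group and did not enter the medians.

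Ginkgolic acid is an alkylated salicylic acid from Ginkgo biloba that inhibits the E1 enzyme of SUMO conjugation. SUMO proteins are small relatives of ubiquitin. The E1 heterodimer SAE1-UBA2 activates them, an E2 enzyme transfers them, and SENP proteases remove them. Many targets are nuclear, among them transcription factors, chromatin proteins and centromere proteins, and cells that cannot conjugate SUMO are known for defects in chromosome segregation.

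A ratio could be formed for 9591 members, and 787 others were listed at 0 in a group. Of those with a ratio, 1187 genes, or 12.4%, passed 2-fold on the ginkgolic acid side and are called higher, and 1636, or 17.1%, passed it on the DMSO side and are called lower. These shares are the background against which each family below is read. The median log2 ratio of ginkgolic acid over DMSO was -0.18 (quartiles -0.74 and 0.42), and 4609 genes lay within 1.5-fold. Higher genes thus made up 42.0% of the genes past 2-fold. That split depended on the centring, the minimum level and the treatment of listed zeros. It was 53.04% after the median ratio of genes at 5 FPKM or more in both groups was subtracted. Centring within classes of GC content gave 52.6%. With 1 FPKM added to each level, so that members listed at 0 enter, it was 50.3%. A minimum of 1 FPKM gave 61.0%, and 5 FPKM required in both groups gave 38.0%.

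The ratio moved with the base composition of the transcripts. Protein-coding genes were ordered by GC content and cut into 5 equal classes. From the lowest class to the highest, the median log2 ratio went from 0.0057 to -0.55. The share of genes at least 2-fold lower went from 9.19% to 28.8%. Spearman rho between GC content and the log2 ratio was -0.24, across 8149 genes that share the same libraries. The part of base composition in the results was not tested, and the GC content of some families is given beside their values.

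**Figure D1:**
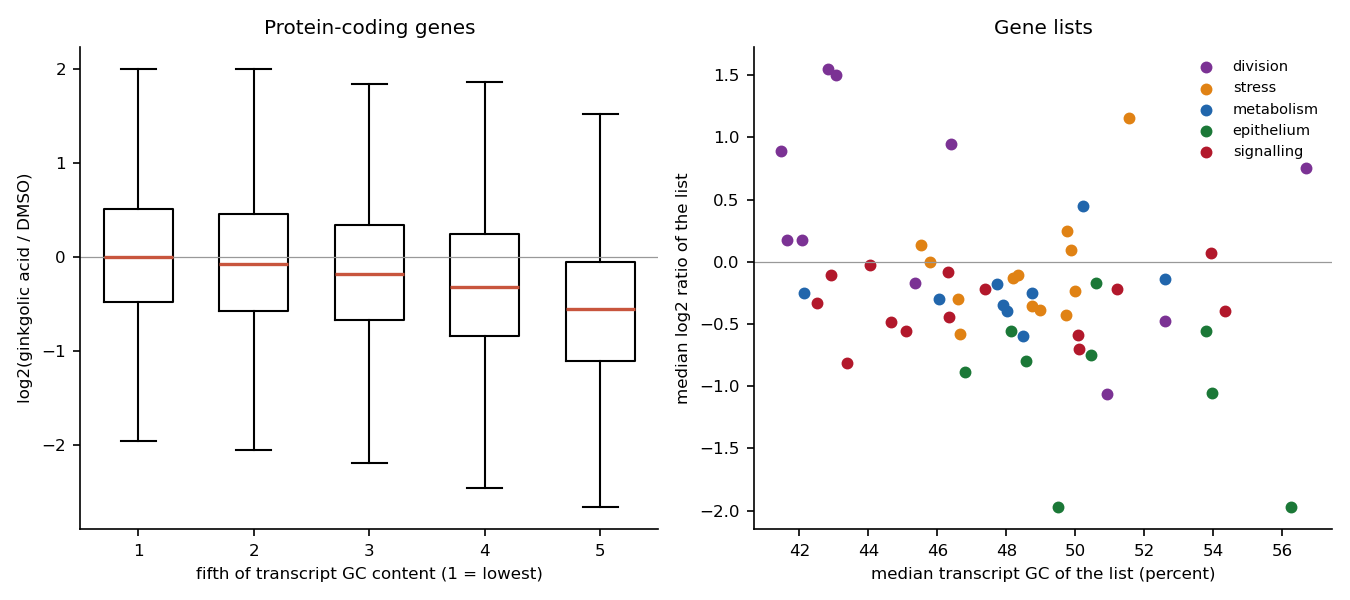
Left, log2 ratio of ginkgolic acid over DMSO for protein-coding genes in 5 equal classes of transcript GC content (box, quartiles; line, median; whiskers, 1.5 times the box; points beyond are not drawn). Right, each gene list by its median transcript GC and its median log2 ratio, coloured by theme; the class medians step downwards from 0.0057 to -0.55, while lists of like GC content spread to both sides of 0.

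Marker genes were read as a check of the cell type. All 6 basal mammary epithelial markers with a row of their own reached 5 FPKM in a group, and their summed level was 306 FPKM with ginkgolic acid and 547 FPKM with DMSO. TP63, the basal epithelial transcription factor, stood at 8.53 against 20.5 FPKM (ginkgolic acid first, here and in every pair below), and ITGB4, the hemidesmosomal integrin, at 114 against 113 FPKM. KRT5 and KRT17 have no row of their own and were not analysed here. Of 8 luminal markers 3 reached 5 FPKM, KRT8, KRT18 and EPCAM, and the summed level was 465 FPKM with ginkgolic acid and 233.7 FPKM with DMSO. The luminal factors ESR1, FOXA1, ELF5 and GATA3 were each under 5 FPKM in both groups. Markers of other cells were low. Of 6 fibroblast markers 2 reached 5 FPKM (summed level 23.1 against 30.7 FPKM), of 6 leukocyte markers 1 (14.9 against 17.8 FPKM), of 4 endothelial markers 1 (5.03 against 10.9 FPKM) and of 4 adipocyte markers 0 (2.60 against 1.02 FPKM). None was at 0 in both groups. The part of these levels in the results was not tested. In bulk samples of this kind, fewer cells of a type and less RNA per cell cannot be told apart.

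A pair of features of the table bear on single genes. The locus listed for a gene can span neighbours, and 6318 of 10378 members shared theirs with another row. 1681 members hold an annotated small RNA in their span, whose reads the table does not separate, and this is said at most of the genes named. Others named that hold one are TP63, AHR, NFE2L2, SREBF2, CCND3, SKP2, KIF4A, CLDN11, CTNNA1, LAMB3, EIF2AK1 and SP100.

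**Figure D2:**
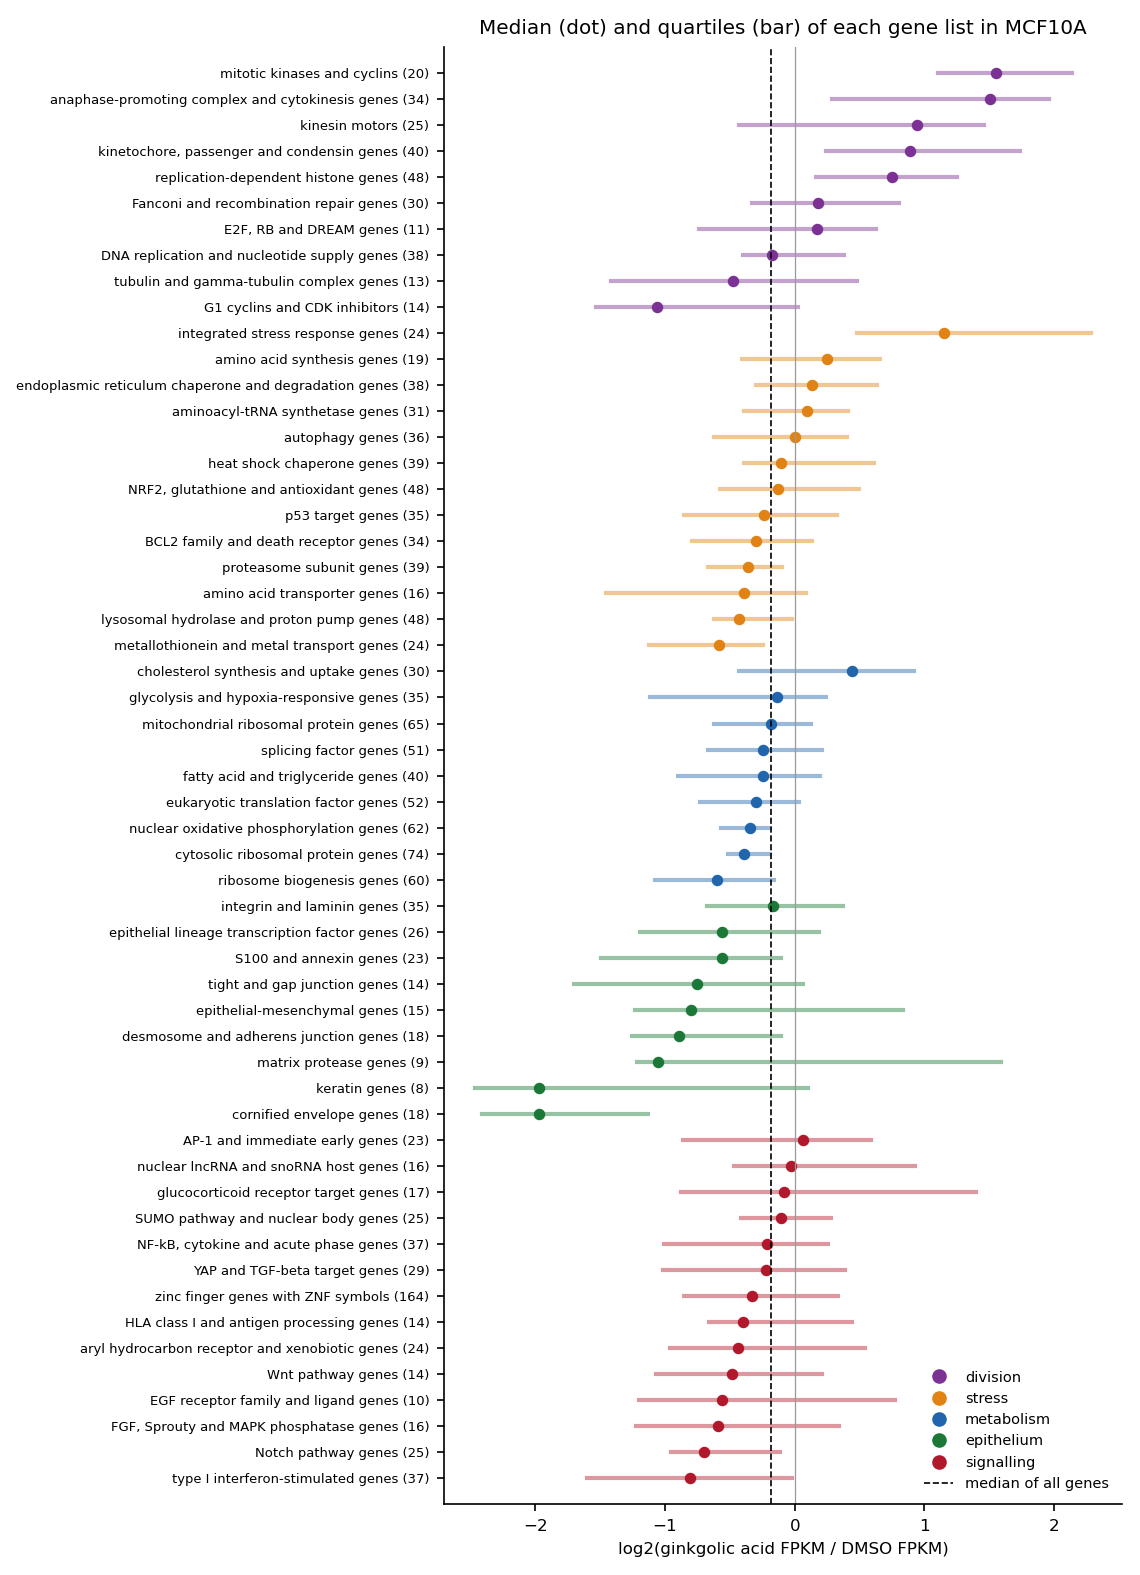
Median log2 ratio of ginkgolic acid over DMSO (dot) with quartiles (bar) for each gene list with at least 5 members that have a ratio; the number of members is in parentheses and the dashed line is the median of all genes (-0.18). The 4 lists of mitotic genes and the integrated stress response stand to the right, and the keratin and cornified envelope genes, both near -1.97, stand farthest to the left.

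Most genes that passed 2-fold among those that carry out mitosis were higher with ginkgolic acid, and the D- and E-type cyclins that act earlier in the cycle were lower. The 117 genes of the 4 mitotic lists had a median log2 ratio of 1.13: 63 were higher and 4 lower. Among the mitotic kinases and cyclins, 15 of 20 were higher and none lower. The median transcript GC of that list was 42.8%, and its median log2 ratio was 1.68 when ratios were centred within classes of GC content.

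NEK2, a kinase that separates the centrosomes, had the widest gap among them at 67.3 against 4.45 FPKM, a 15.1-fold higher level. Aurora kinase A (AURKA), which builds the spindle poles, stood at 63.3 against 14.1 FPKM. TTK, the kinase that starts the spindle checkpoint, stood at 26.0 against 4.65 FPKM. The catalytic core was among the most abundant: CDK1 was at 191 against 64.9 FPKM and its partner cyclin B1 (CCNB1) at 134 against 41.3 FPKM. The phosphatase CDC25B, which activates CDK1, was the single member with a ratio below 0, at 36.0 against 47.4 FPKM. WEE1, the kinase that holds CDK1 inactive, was on the same side as the cyclins, at 47.8 against 14.7 FPKM, and it holds a small RNA.

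Genes of chromosome separation and cell cleavage gave like values. Of 34, 20 were higher and 1 lower (median log2 ratio 1.503). Anillin (ANLN), a scaffold of the cleavage furrow, was at 151 against 29.2 FPKM, and PTTG1, the securin that restrains separase, at 205 against 62.7 FPKM. The spindle assembly factor TPX2 stood at 34.3 against 7.28 FPKM. The core of the anaphase-promoting complex was near equality: its 12 subunits had a median log2 ratio of -0.06, and its activator CDC20 was at 24.2 against 6.57 FPKM beside CDC27 at 70.0 against 63.3 FPKM. UBE2C and UBE2S, the conjugating enzymes that serve this complex, were at 68.5 against 17.2 and 27.3 against 9.93 FPKM.

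Kinesins, the motors that walk on microtubules, were mostly on the higher side where they passed 2-fold. 12 of 25 were higher and 2 lower (median log2 ratio 0.94; 0.30 when 5 FPKM was required in both groups). KIF2C, which takes microtubules apart at the kinetochore, was at 56.4 against 9.69 FPKM. The spindle motor KIF11 was at 12.4 against 4.97 FPKM and the chromosome motor KIF4A at 5.65 against 2.06 FPKM. The 2 lower ones were the cargo motors KIF1A and KIF1C, at 2.13 against 5.67 and 21.5 against 51.1 FPKM, and KIF5B, the conventional kinesin, was at 92.6 against 122 FPKM.

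At the kinetochore and in the condensin complexes, 17 of 40 genes were higher and 1 lower. HJURP, the chaperone that deposits the centromeric histone, was at 11.1 against 1.76 FPKM. NCAPH and NCAPG, of condensin I, were at 10.9 against 2.04 and 41.6 against 9.49 FPKM, while NCAPH2, of condensin II, was at 11.6 against 14.9 FPKM. The outer kinetochore pair NDC80 and NUF2 stood at 31.3 against 7.82 and 34.9 against 10.3 FPKM. MIS18A, which readies centromeres for new histones, was the lower one, at 3.16 against 10.2 FPKM, and the kinetochore proteins MIS12 and DSN1 had ratios below 0, at 14.8 against 27.8 and 4.82 against 8.53 FPKM. The topoisomerase TOP2A, which untangles sister chromosomes, was at 111 against 25.01 FPKM and holds a small RNA.

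The promoters of these genes were read for sequence motifs. A pair of motifs known from mitotic promoters was searched on both strands of RefSeq promoters (GRCh38.p14) that run from 250 bases before to 50 bases after a gene start. They were TTTGAA, the cell cycle genes homology region bound by the DREAM and MuvB complexes, and CCAAT, bound by NF-Y, and neither contains the other. Of 35116 promoters of all genes, 15.2% held TTTGAA and 34.6% held CCAAT. Of the 126 promoters matched to 96 of the mitotic genes, 45.2% held TTTGAA and 59.5% held CCAAT. For the mitotic genes at least 2-fold higher the shares were 60.3% and 71.4% of 63 promoters. Over all members at least 2-fold higher, a set that includes these mitotic genes, TTTGAA stood in 17.7% of promoters. The share was 8.15% for those at least 2-fold lower and 11.1% over the promoters of all members. Neither motif was particular to the mitotic lists. Replication-dependent histone genes held CCAAT in 85.4% and TTTGAA in 43.9% of 41 promoters. Endoplasmic reticulum chaperone and degradation genes held CCAAT in 73.3% and TTTGAA in 8.89% of 45. DNA replication and nucleotide supply genes held CCAAT in 46% and TTTGAA in 8% of 50. A match is a run of letters and not a shown binding site.

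The promoters of 3 genes with both motifs close to the gene start are printed as the 250 bases before it, 5′ to 3′ on the gene's strand, with matches to either motif on either strand in capitals. They belong to DEPDC1 (a mitotic gene, 23.5 against 5.45 FPKM; chr1:68497083-68497332, minus strand), KIF11 (chr10:92592880-92593129, plus strand) and CCNB2 (cyclin B2, 47.3 against 16.2 FPKM; chr15:59104896-59105145, plus strand). In this order, the TTTGAA match begins at position -27, -28 and -29 relative to the gene start, and the nearest CCAAT match at -52, -53 and -54.
DEPDC1: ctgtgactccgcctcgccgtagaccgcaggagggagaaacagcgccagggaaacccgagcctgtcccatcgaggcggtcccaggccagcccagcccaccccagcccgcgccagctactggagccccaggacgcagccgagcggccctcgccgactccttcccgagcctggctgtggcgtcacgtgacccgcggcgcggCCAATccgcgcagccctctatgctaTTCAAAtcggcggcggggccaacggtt
KIF11: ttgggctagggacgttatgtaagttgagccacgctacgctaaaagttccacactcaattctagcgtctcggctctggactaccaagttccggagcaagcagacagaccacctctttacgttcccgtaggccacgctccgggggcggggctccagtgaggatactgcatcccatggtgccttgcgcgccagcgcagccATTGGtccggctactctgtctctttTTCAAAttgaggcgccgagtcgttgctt
CCNB2: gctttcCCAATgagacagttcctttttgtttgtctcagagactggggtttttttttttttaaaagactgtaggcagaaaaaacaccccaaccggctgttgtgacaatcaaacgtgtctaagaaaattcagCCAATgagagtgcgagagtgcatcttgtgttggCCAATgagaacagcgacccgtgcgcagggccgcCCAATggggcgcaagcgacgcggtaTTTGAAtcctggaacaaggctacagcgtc

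Tubulins, the building blocks of the spindle, gave no common direction. The tubulin and gamma-tubulin complex list had 1 member higher and 4 lower of 13. TUBB, the common beta-tubulin, was at 103 against 57.7 FPKM, whereas TUBB6 was at 24.1 against 87.2 FPKM and TUBA1A at 6.45 against 23.8 FPKM.

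DNA replication genes were near the median of all genes. Of 38, 3 were higher and 4 lower, with a median log2 ratio of -0.17 beside -0.18 for all genes. CDC6, which loads the replicative helicase, was at 14.0 against 3.30 FPKM. The helicase itself, the MCM complex, had a median of -0.59 over 5 subunits, with MCM4 at 106 against 160.1 FPKM. PCNA, the sliding clamp of the polymerase, was at 25.2 against 57.1 FPKM and holds a small RNA; DCTPP1, which cleans the nucleotide pool, was at 3.68 against 15.9 FPKM. Among 30 Fanconi and recombination genes 6 were higher and 3 lower. BRCA1 stood at 5.98 against 2.80 FPKM, RAD50, of the break-sensing MRN complex, at 199 against 87.9 FPKM, and the Holliday junction nuclease GEN1 at 2.54 against 6.62 FPKM.

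Histone genes were higher in part, most of them linker and H2B genes. 20 of 48 were at least 2-fold higher and 2 lower (median log2 ratio 0.75; their median transcript GC was 56.7%, within the highest GC class). The median was 1.43 for 4 linker histones, 1.37 for 16 H2B genes, 0.40 for 13 H2A genes, 0.24 for 7 H3 genes and 0.25 for 8 H4 genes. HIST1H2BD was at 686 against 249.9 FPKM and HIST1H1C at 338 against 153 FPKM, while HIST1H3C was at 61.9 against 61.3 FPKM. Histone copies are near identical, so reads can be divided among them by the authors' counting. The labels name total RNA and no poly(A) selection, and replication histone mRNAs lack a poly(A) tail.

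Cyclins of G1 were lower. 8 of 14 members of that list were at least 2-fold lower and 2 higher (median log2 ratio -1.06). The D cyclins, which answer to growth factors, stood at 3.55 against 13.1 FPKM (CCND1), 5.16 against 13.2 FPKM (CCND2) and 12.03 against 36.3 FPKM (CCND3). The E cyclins of S phase entry were at 4.68 against 9.78 FPKM (CCNE1) and 2.96 against 10.7 FPKM (CCNE2), and SKP2, which targets p27 for degradation, was at 6.03 against 13.8 FPKM. The inhibitors of CDKs were divided: p18 (CDKN2C) was at 11.2 against 4.95 FPKM, p21 (CDKN1A) at 77.3 against 34.6 FPKM and p27 (CDKN1B) at 47.2 against 26.9 FPKM, but p57 (CDKN1C) was at 5.91 against 28.6 FPKM. Of 11 E2F, RB and DREAM genes 1 was higher and 2 lower, with a median log2 ratio of 0.18. The higher one was LIN54, a DNA-binding MuvB subunit that holds a small RNA, at 7.22 against 3.18 FPKM. The lower ones were E2F4 and TFDP1: E2F4, the E2F factor of the DREAM repressor, was at 10.2 against 37.0 FPKM and its partner TFDP1 at 12.8 against 33.5 FPKM.

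**Figure D3:**
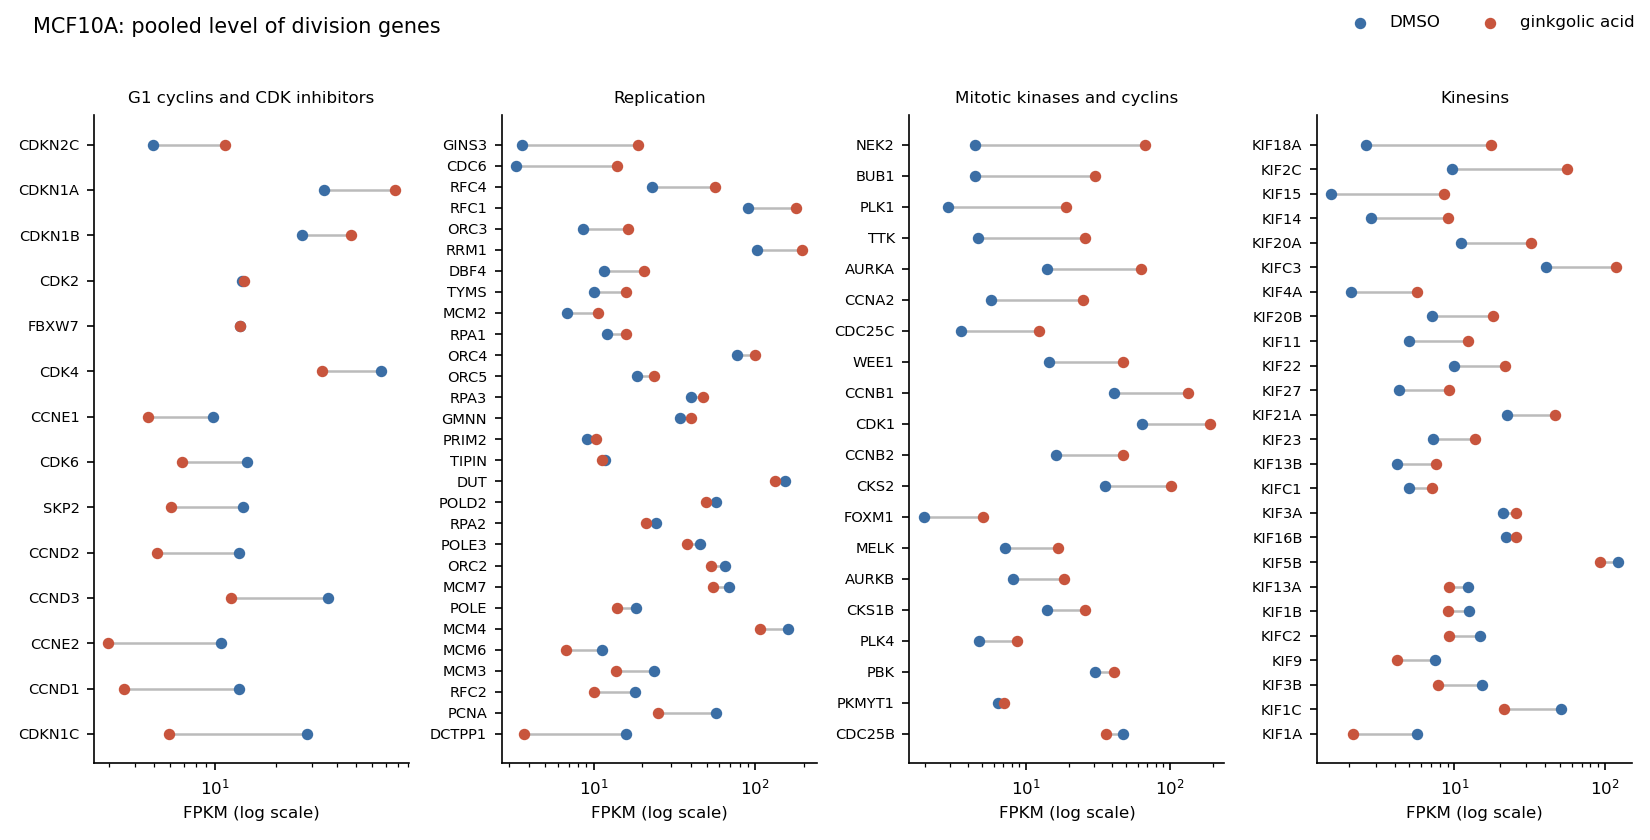
Pooled FPKM (log scale) of division genes in MCF10A with DMSO (blue) and ginkgolic acid (red), 1 line per gene, ordered by the ratio; replication genes are those with at least 10 FPKM in a group. Red lies right of blue for all mitotic kinases and cyclins but CDC25B, and left of blue for the D and E cyclins.

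Most genes of the integrated stress response were higher. This pathway runs from kinases that phosphorylate the initiation factor eIF2 to the transcription factor ATF4 and its targets. 14 of 24 genes were at least 2-fold higher and none lower (median log2 ratio 1.15, at a median transcript GC of 51.6%). ATF4 itself was at 410.0 against 184 FPKM. Its targets ATF3, NUPR1 and DDIT4, the last an inhibitor of mTOR, were at 55.0 against 8.22, 310.1 against 63.9 and 998 against 364 FPKM. The 4 eIF2 kinases lay near equality, from -0.29 (EIF2AK4) to 0.34 (EIF2AK1) on the log2 scale.

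Enzymes that make amino acids and charge tRNAs went both ways. Of 19 synthesis genes 4 were higher and 3 lower. PHGDH, the entry of serine synthesis, was at 45.1 against 4.99 FPKM, and asparagine synthetase (ASNS) at 121 against 29.02 FPKM. The next serine enzymes differed from it: PSAT1 was at 15.6 against 12.1 FPKM and PSPH at 13.3 against 40.1 FPKM. Glutamine synthetase (GLUL) stood at 247 against 818 FPKM, a log2 ratio of -1.73. Cytosolic tRNA synthetases had a median log2 ratio of 0.31 (2 higher and 0 lower of 19) and mitochondrial ones -0.33 (0 higher and 2 lower of 12). GARS was at 162 against 47.2 FPKM and YARS at 126 against 50.1 FPKM, while the mitochondrial LARS2 was at 4.55 against 13.9 FPKM. None of the 16 amino acid transporter genes was 2-fold higher and 5 were lower; SLC3A2, the heavy chain shared by several of them, was at 3068 against 1744 FPKM, and SLC38A9, the lysosomal arginine sensor, at 6.77 against 21.8 FPKM.

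In the endoplasmic reticulum a few chaperones were higher and most of the folding machinery was within 2-fold. 6 of 38 genes were higher and none lower, beside 12.4% and 17.1% of all genes. The J protein DNAJB9 was at 217 against 47.6 FPKM, on a locus that carries 3 rows of the table, and HSP90B1 (GRP94), which holds a small RNA, at 1505 against 538 FPKM. MANF, a secreted stress factor, was at 213 against 98.3 FPKM. The sensors ERN1 and ATF6 stood at 8.07 against 6.22 and 6.98 against 8.76 FPKM, and the disulfide isomerases P4HB and PDIA4 at 355 against 387 and 79.3 against 77.7 FPKM.

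The promoters of HSPA5 (BiP, the main chaperone of this compartment, 102 against 22.2 FPKM; chr9:125241344-125241593, minus strand) and HSP90B1 (chr12:103930160-103930409, plus strand) are shown because they hold the endoplasmic reticulum stress element, in capitals. The motif searched, on both strands, was CCAAT and CCACG with 9 bases of any kind between them, so it contains the CCAAT motif above. It stood in 20% of 45 promoters of this list and in 0.0769% of all promoters.
HSPA5: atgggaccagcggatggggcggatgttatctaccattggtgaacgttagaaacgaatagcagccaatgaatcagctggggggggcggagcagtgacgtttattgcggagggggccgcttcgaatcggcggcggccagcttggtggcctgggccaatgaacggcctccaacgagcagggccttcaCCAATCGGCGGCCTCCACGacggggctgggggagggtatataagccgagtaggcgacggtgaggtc
HSP90B1: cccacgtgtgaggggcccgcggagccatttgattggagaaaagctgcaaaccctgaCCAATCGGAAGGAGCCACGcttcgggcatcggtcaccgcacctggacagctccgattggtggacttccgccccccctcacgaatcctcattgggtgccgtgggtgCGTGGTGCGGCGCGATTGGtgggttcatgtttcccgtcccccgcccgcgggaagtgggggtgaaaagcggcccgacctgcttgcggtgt

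Cytosolic heat shock genes were mixed, with 5 higher and 2 lower of 39. The inducible HSP70 copies HSPA1A and HSPA1B, which are near identical and can share reads, were at 36.9 against 17.0 and 45.8 against 21.0 FPKM. HSP90AA1 and HSP90AB1 were at 447 against 233.8 and 442 against 232 FPKM, each just under 2-fold. The small heat shock protein HSPB1 stood at 83.7 against 189 FPKM, and the 6 measured subunits of the CCT chaperonin had a median log2 ratio of -0.36. HSF1, the master factor of the response, was level at 24.0 against 24.5 FPKM, and HSF2 was at 16.2 against 7.64 FPKM. CHORDC1, a co-chaperone of HSP90 at 26.7 against 10.3 FPKM, is shown (chr11:90223050-90223299, minus strand) for its 3 matches to GAANNTTC, the core of the heat shock element, in capitals. That core, which reads the same on both strands, stood in 30.6% of 49 promoters of this list and in 6.77% of all promoters.
CHORDC1: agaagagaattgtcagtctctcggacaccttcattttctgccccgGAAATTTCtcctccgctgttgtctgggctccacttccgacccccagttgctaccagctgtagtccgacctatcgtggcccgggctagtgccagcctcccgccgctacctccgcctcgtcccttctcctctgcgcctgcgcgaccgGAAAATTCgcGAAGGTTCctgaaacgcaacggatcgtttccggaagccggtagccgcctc

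Antioxidant and glutathione genes, listed together with genes of the factor NRF2, gave 6 higher and 1 lower of 48. The higher share, 12.5%, was near the 12.4% of all genes, and the lower share was 2.08% beside 17.1%. Their median log2 ratio was -0.13 beside -0.18 for all genes. Both ferritin chains, which store iron, were among the higher ones, with FTL at 433 against 123 FPKM and FTH1 at 2361 against 1170 FPKM. NQO1, a quinone reductase, stood at 169.8 against 82.4 FPKM, and NFE2L2, the gene of NRF2, at 125 against 92.4 FPKM. The 6 peroxiredoxins, which reduce peroxides, had a median log2 ratio of -0.66, and GSTP1, a glutathione transferase, was at 630.5 against 1326 FPKM. The transferrin receptor TFRC, the import side of iron, was at 91.2 against 217 FPKM and holds a small RNA. Of the metallothioneins, which bind zinc and copper, MT2A and MT1E were at 1269 against 482 and 1063 against 483 FPKM and MT1X at 122 against 231 FPKM. Zinc transporters had 1 member higher and 5 lower of 16; the higher one was SLC39A7, which releases zinc from the endoplasmic reticulum, at 49.0 against 20.3 FPKM.

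Protein degradation genes were mostly within 2-fold. None of 39 proteasome genes was 2-fold higher, and 2 were lower (median log2 ratio -0.36): PSMB8, the immunoproteasome subunit, at 13.4 against 29.8 FPKM, and PSME3, a nuclear activator, at 5.72 against 18.4 FPKM. Among 36 autophagy genes 4 were higher and 1 lower, with GABARAPL1, an ATG8 protein, at 76.3 against 28.3 FPKM and TFEB, the factor of lysosome synthesis, at 5.66 against 2.30 FPKM. Lysosomal genes had 2 higher and 5 lower of 48; progranulin (GRN) was at 7.95 against 20.5 FPKM and the pump subunit ATP6V0D1 at 8.45 against 32.0 FPKM.

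p53 target genes did not move as one. Of 35 genes 6 were higher and 5 lower. GADD45A and GADD45B, which answer to DNA damage and other stress, were at 45.2 against 14.2 and 59.7 against 17.3 FPKM, while MDM2, a ubiquitin ligase, was at 201 against 329 FPKM, and PERP, a desmosomal protein, at 260.0 against 971 FPKM. In the death machinery 3 of 34 genes were higher and 7 lower. The BH3 protein NOXA (PMAIP1) was 3.99-fold higher, from 5.52 FPKM with DMSO, and BIK was at 1.52 against 10.3 FPKM. Adaptors and a caspase of the death receptors were lower, with FADD at 0.731 against 9.31 FPKM, TRADD 4.81-fold lower at 2.29 FPKM with ginkgolic acid and CASP8 at 11.9 against 35.1 FPKM; the receptors TNFRSF10A and TNFRSF10B were at 36.9 against 43.2 and 61.4 against 88.2 FPKM.

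Cholesterol genes past 2-fold went both ways, and the median of the list stood above that of all genes. 6 of 30 were higher and 4 lower, or 20% and 13.3%. The median log2 ratio was 0.44 beside -0.18 for all genes, with 20 of the 30 above 0. Among the higher genes, IDI1, which makes dimethylallyl diphosphate, was at 108 against 26.5 FPKM, squalene synthase (FDFT1) at 546 against 177 FPKM and the sterol demethylation enzyme MSMO1 at 363 against 63.9 FPKM. PMVK, a kinase of the mevalonate pathway, was lower, at 5.95 against 13.5 FPKM. The master factor SREBF2 stood at 11.4 against 7.49 FPKM. STARD4, a carrier of sterol inside the cell, was at 56.4 against 15.2 FPKM, and the liver X receptors NR1H2 and NR1H3, which answer to sterol excess, were at 10.7 against 26.8 and 14.4 against 26.1 FPKM.

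Of 40 fatty acid and triglyceride genes 9 were lower and 3 higher, to be read beside 17.1% and 12.4% of all genes. Fatty acid synthase (FASN) was at 9.12 against 31.2 FPKM, and GPAM, which begins triglyceride synthesis, at 1.36 against 15.7 FPKM. PDK4, which turns the cell from glucose to fat oxidation, was at 123 against 36.1 FPKM, but CPT2, of the mitochondrial import of fatty acids, was at 2.57 against 9.42 FPKM. The stearoyl desaturase SCD stood at 54.6 against 35.4 FPKM.

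Glycolytic enzymes went mostly below 0 where they passed 2-fold (1 higher and 4 lower of 16). PGK1 and PGAM1, consecutive enzymes of the lower pathway, were at 85.5 against 277 and 7.94 against 31.9 FPKM, and PKM, the pyruvate kinase, at 395 against 841 FPKM, while GAPDH was at 784 against 907 FPKM and ENO1, which holds a small RNA, at 1623 against 1605 FPKM. Hypoxia-responsive genes were divided: adrenomedullin (ADM) was at 77.9 against 8.83 FPKM and VEGFA at 62.4 against 12.6 FPKM, but NDRG1 was at 90.6 against 287 FPKM and the carbonic anhydrase CA12 at 6.70 against 22.2 FPKM. None of the 62 nuclear genes of oxidative phosphorylation was 2-fold higher and 1 was lower, NDUFA3 of complex I at 39.5 against 88.0 FPKM. That list had narrow quartiles, -0.57 and -0.19, on the log2 scale. From the mitochondrial genome 2 members of the list had rows of their own, MT-CYB at 445 against 906 FPKM and MT-ND6 at 947 against 3898 FPKM.

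Genes that build ribosomes were lower where they passed 2-fold. 16 of 60 biogenesis genes were at least 2-fold lower and none higher (median log2 ratio -0.60, and -0.46 without the 17 genes that hold a small RNA). NOLC1, a nucleolar chaperone of small nucleolar particles, was at 24.2 against 89.3 FPKM, NOP16 at 28.3 against 78.1 FPKM and MYBBP1A, a regulator of the nucleolus, at 14.8 against 40.2 FPKM. MYC, which drives many of these genes, was at 35.2 against 105 FPKM. Nucleophosmin (NPM1), the most abundant of the list, was at 11333 against 9919 FPKM. Cytosolic ribosomal protein genes had a median log2 ratio of -0.39, with 70 of 74 below 0, 9 lower and 1 higher, RPL39L at 6.57 against 2.45 FPKM. The lower share was 12.2%, beside 17.1% of all genes. Without the 31 hosts of a small RNA the median was -0.32. In mitochondrial ribosomes 8 of 65 genes were lower and 0 higher, with MRPL28 at 6.60 against 25.1 FPKM.

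Translation factors had 4 higher and 10 lower of 52. 4E-BP1 (EIF4EBP1), a repressor of cap-dependent translation and an ATF4 target, was at 138 against 26.2 FPKM, while its relative EIF4EBP2 was at 1.77 against 6.78 FPKM. EIF1, which guards start codon choice, was at 199 against 86.1 FPKM, and EIF2B1, of the exchange factor for eIF2, at 10.48 against 40.3 FPKM. Splicing factors had 2 higher and 5 lower of 51; the kinase CLK1, which phosphorylates SR proteins and holds a small RNA, was at 280.4 against 87.7 FPKM, and HNRNPAB at 30.0 against 111 FPKM.

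Most genes of the cornified envelope list were lower. The cornified envelope is the protein shell of terminal keratinocytes, and its genes are expressed at some level in cultured basal cells. The list is wider than that shell and also holds proteases and protease inhibitors, among them KLK5, KLK7, SLPI and SERPINB1. Kallikreins and serpin B genes taken alone had 6 lower and 0 higher of 8 (median log2 ratio -1.93). 15 of 18 measured genes were at least 2-fold lower and none higher, with a median log2 ratio of -1.97 (-1.71 when centred within classes of GC content). The median was -1.16 when 5 FPKM was required in both groups and -1.34 with a minimum of 1 FPKM. The elastase inhibitors PI3 (elafin) and SLPI were at 7.38 against 91.5 and 242 against 1286 FPKM. The serine proteases KLK5 and KLK7, which shed cornified cells, stood at 3.15 against 16.7 and 3.46 against 16.8 FPKM, and the envelope plakins PPL and EVPL at 17.5 against 38.2 and 4.43 against 9.03 FPKM. SERPINB1, a leukocyte elastase inhibitor, was on the other side, at 158 against 98.6 FPKM.

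The promoters of SPRR1B, a precursor of the envelope (5.82 against 66.4 FPKM; chr1:153030953-153031202, plus strand), and SERPINB13 (3.63 against 30.6 FPKM; chr18:63587093-63587342, plus strand) are shown for their matches to TGANTCA, the AP-1 site bound by JUN and FOS factors, in capitals. The letters read the same on both strands. This motif stood in 41.2% of the 17 promoters, of 12 genes, matched to the list and in 7.71% of all promoters. Among promoters of members the share was 5.35% for those at least 2-fold lower and 7.47% for those at least 2-fold higher. Over all members it was 5.09%.
SPRR1B: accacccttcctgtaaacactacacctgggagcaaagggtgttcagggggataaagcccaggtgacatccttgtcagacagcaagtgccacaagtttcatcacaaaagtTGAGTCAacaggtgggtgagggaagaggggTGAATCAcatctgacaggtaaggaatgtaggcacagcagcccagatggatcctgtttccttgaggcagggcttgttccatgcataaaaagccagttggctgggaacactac
SERPINB13: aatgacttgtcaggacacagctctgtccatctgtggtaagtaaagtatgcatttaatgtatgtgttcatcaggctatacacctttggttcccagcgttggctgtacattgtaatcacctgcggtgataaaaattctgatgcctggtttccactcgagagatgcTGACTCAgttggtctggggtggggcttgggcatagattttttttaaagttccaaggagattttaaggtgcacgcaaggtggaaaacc

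Keratins that passed 2-fold were mostly lower. Of 8 measured genes 5 were lower and 1 higher. Among the lower ones, KRT14, of basal cells, was at 5.68 against 21.8 FPKM and KRT16, of activated keratinocytes, at 30.7 against 123 FPKM. KRT10, of suprabasal cells, was lower too, at 6.79 against 35.0 FPKM. The keratins of simple epithelium did not share a direction. KRT18 was the higher one, at 167 against 76.0 FPKM. KRT8 was under 2-fold at 179.8 against 108 FPKM, and KRT7 was at 1499 against 1613 FPKM. The median log2 ratio of the list was -1.97 at a median transcript GC of 56.3%, and -1.44 when centred within classes of GC content; with a minimum of 1 FPKM it was -0.65.

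Cell junction genes that passed 2-fold were lower with 1 exception. None of the 18 desmosome and adherens junction genes was 2-fold higher and 7 were lower (median log2 ratio -0.89). The cadherins of both junctions stood at 39.2 against 96.6 FPKM (CDH1, E-cadherin), 103 against 247 FPKM (CDH3, P-cadherin), 75.4 against 228 FPKM (DSG3) and 13.4 against 45.9 FPKM (DSC2), whereas DSG2, the desmoglein of simple epithelia, was at 57.4 against 54.0 FPKM. The catenins CTNNB1 and CTNNA1 were at 56.0 against 48.4 and 588 against 664 FPKM. Of tight and gap junction genes 6 of 14 were lower, among them GJB5 at 2.15 against 15.2 FPKM and CLDN4 at 1.16 against 5.59 FPKM, and 1 was higher, CLDN11 at 5.06 against 1.88 FPKM.

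S100 proteins, small calcium binders, were lower in most cases, and annexins were mostly within 2-fold. 8 of 13 S100 genes were lower (median log2 ratio -1.47, median transcript GC 55.1%), with S100A9 at 24.2 against 419 FPKM, S100P at 28.1 against 80.3 FPKM and S100A11 at 21.1 against 79.2 FPKM. S100A2, a p63 target, was the higher one, at 3902 against 1714 FPKM. The 10 annexins had a median log2 ratio of -0.33, with ANXA2 at 776 against 1068 FPKM and ANXA5 at 212 against 114 FPKM.

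**Figure D4:**
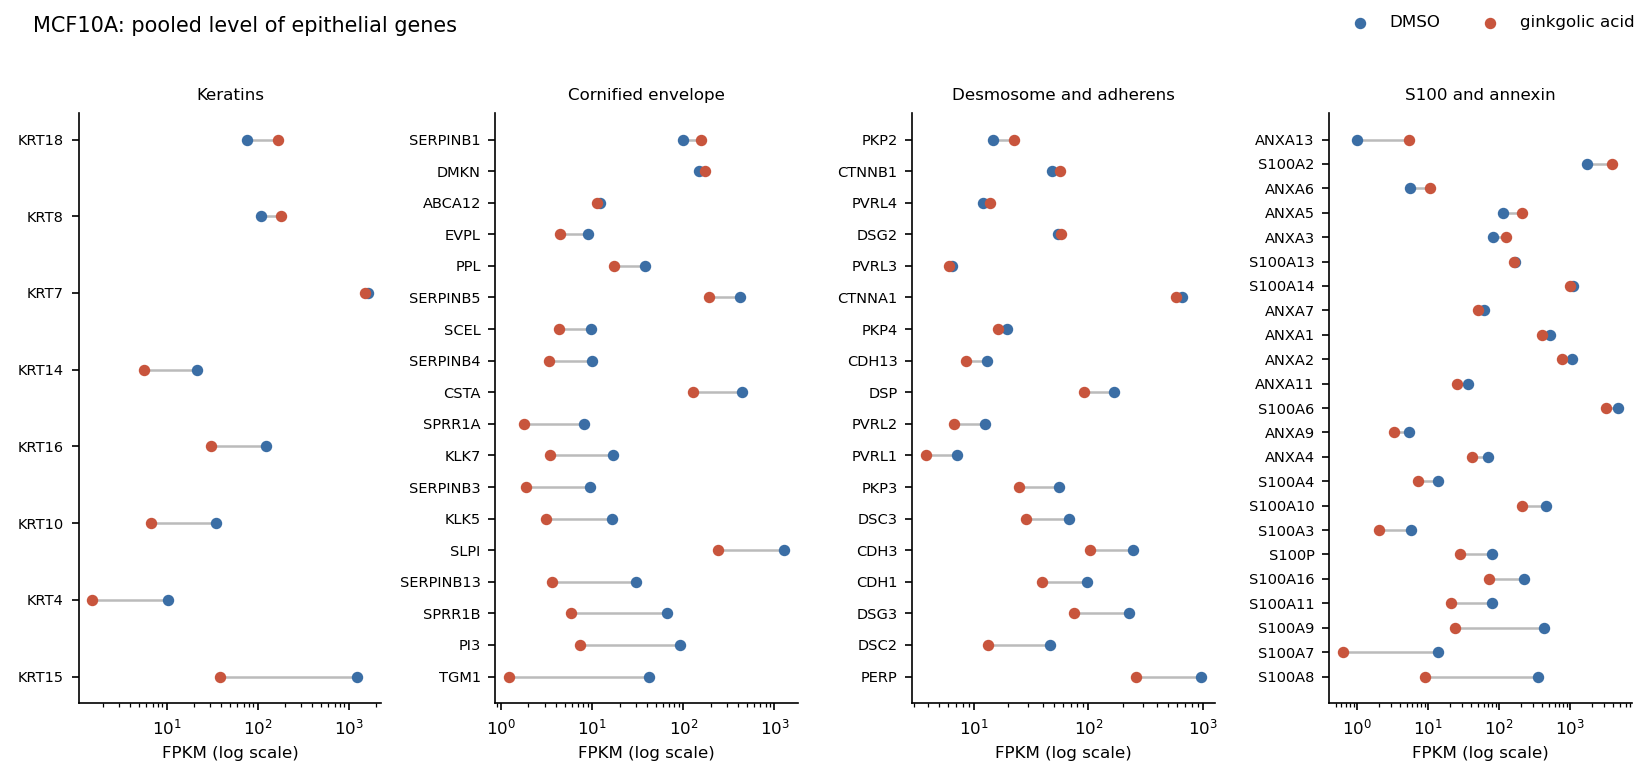
Pooled FPKM (log scale) of epithelial genes in MCF10A with DMSO (blue) and ginkgolic acid (red), 1 line per gene, ordered by the ratio. Red lies left of blue for most cornified envelope and S100 genes and for 6 of the 8 keratins, and right of blue for KRT8 and KRT18.

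Genes used to read epithelial and mesenchymal state did not fall on one side. Of 15, 4 were higher and 6 lower, with a median log2 ratio of -0.80. Among the lower ones were the epithelial genes CDH1, ST14, a membrane protease, at 24.1 against 65.1 FPKM, and MAL2, of apical transport, at 61.9 against 181 FPKM. Vimentin (VIM), a mesenchymal filament that MCF10A cells also carry, was at 106 against 24.8 FPKM, fibronectin (FN1) at 16.4 against 5.50 FPKM and the transcription factor TWIST1 at 71.2 against 26.5 FPKM. EPCAM, an epithelial adhesion molecule that holds a small RNA, was also higher, at 110.2 against 41.2 FPKM, and SNAI2, a mesenchymal factor, was at 5.27 against 9.18 FPKM. The grainyhead factors GRHL1 and GRHL3, which keep epithelial junction genes on, were at 3.79 against 12.8 and 3.10 against 6.91 FPKM, GRHL2 at 8.18 against 6.88 FPKM. Of 26 lineage transcription factors 7 were lower and 3 higher; KLF5 was at 36.6 against 131 FPKM and RUNX1, which holds a small RNA, at 15.7 against 6.42 FPKM.

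Genes of the basement membrane went both ways. Laminins had 3 higher and 0 lower of 7: the chains LAMA3 and LAMB3 of laminin-332 were at 73.5 against 31.1 and 94.0 against 24.97 FPKM. Of 12 integrin subunits 2 were higher and 2 lower. The higher ones were ITGA4 and ITGA10, at 8.29 against 2.43 and 5.81 against 1.13 FPKM, and the lower ones ITGA6 and ITGB6, at 52.5 against 109.8 and 18.8 against 61.1 FPKM. ITGB1 was at 419 against 468 FPKM. COL7A1, the anchoring fibril collagen, and COL17A1, of hemidesmosomes, which both hold a small RNA, were at 7.87 against 21.5 and 126 against 271 FPKM. Among the proteases of the matrix, the plasminogen activator PLAU was at 24.6 against 9.18 FPKM and TIMP1, an inhibitor of metalloproteases, at 92.5 against 30.7 FPKM. MMP7, matrilysin, was at 1.40 against 33.5 FPKM and MMP14 at 22.7 against 47.1 FPKM. This small list of 9 has no stable median: -1.05 as selected, 0.19 without the gene that holds a small RNA and 0.78 with a minimum of 1 FPKM.

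Genes of the SUMO pathway were mostly within 2-fold. Of 25 genes 2 were higher and none lower (median log2 ratio -0.10 beside -0.18 for all genes). The target enzyme of ginkgolic acid was at 57.1 against 57.2 FPKM (SAE1) and 71.8 against 59.1 FPKM (UBA2). SENP7, a protease of SUMO chains that holds a small RNA, was among the higher genes, at 20.2 against 8.99 FPKM. PML and SP100, which form nuclear bodies, stood at 5.64 against 6.49 and 85.0 against 44.2 FPKM.

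In the EGF family, whose ligand is part of the medium, 2 of 10 genes were higher and 3 lower (median log2 ratio -0.56). Epigen (EPGN) was at 43.7 against 312 FPKM and betacellulin (BTC) at 1.01 against 6.18 FPKM, while HBEGF was at 6.76 against 3.09 FPKM; the receptor EGFR stood at 22.2 against 34.9 FPKM. In the FGF and MAPK phosphatase list 3 of 16 were higher and 6 lower. FGFBP1, which carries FGFs in the matrix, was at 0.632 against 13.6 FPKM. The MAPK phosphatases went both ways, with DUSP1 and DUSP4 at 190.1 against 29.3 and 8.25 against 0.777 FPKM and DUSP14 and DUSP23 at 7.29 against 23.5 and 23.9 against 67.4 FPKM. Of 23 immediate early genes 4 were higher and 4 lower. FOS was at 12.7 against 10.8 FPKM, JUN at 7.95 against 13.8 FPKM and FOSL2 at 11.7 against 33.8 FPKM, and serum response factor (SRF), which drives many of them, was at 1.61 against 7.37 FPKM.

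In the YAP and TGF-beta group 4 of 29 genes were higher and 8 lower. The receptors TGFBR1 and TGFBR2 were at 4.65 against 10.6 and 4.28 against 8.47 FPKM, and the YAP partner TEAD1, which holds a small RNA, at 6.45 against 20.1 FPKM. NT5E (CD73) was at 18.1 against 3.36 FPKM and tissue factor (F3) at 3.19 against 11.9 FPKM. In the Wnt group 4 of 14 genes were lower and none higher; the inhibitor DKK1 was at 2.30 against 22.9 FPKM and the nuclear factor TCF7L2 at 2.27 against 11.2 FPKM. In the Notch group 6 of 25 genes were lower and 1 was higher, the target HES1 at 179 against 36.6 FPKM. The receptors NOTCH1, which holds a small RNA, and NOTCH2 stood at 6.18 against 11.4 and 3.95 against 6.42 FPKM, and NOTCH3 was not among the members. Of the gamma-secretase genes, PSENEN was at 12.2 against 24.6 FPKM, and APH1B was 2.22-fold lower from 16.9 FPKM with DMSO, while NCSTN was at 32.8 against 25.4 FPKM.

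Glucocorticoid receptor targets went both ways in cells kept in hydrocortisone (5 higher and 4 lower of 17). GILZ (TSC22D3) was at 724 against 144 FPKM and KLF9 at 27.3 against 14.8 FPKM, but SGK1 was at 6.84 against 57.7 FPKM and FKBP5 at 146 against 268 FPKM, these 2 with a small RNA in their span. The receptor gene NR3C1 stood at 32.4 against 41.8 FPKM. Xenobiotic genes were as mixed, with 4 higher and 4 lower of 24 (median log2 ratio -0.44): AHR, the aryl hydrocarbon receptor, was at 24.3 against 45.8 FPKM, its target CYP1B1 at 35.3 against 27.9 FPKM and its repressor TIPARP at 46.1 against 20.0 FPKM.

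Interferon-stimulated genes that passed 2-fold were mostly lower. Of 37, 15 were at least 2-fold lower and 2 higher (median log2 ratio -0.81, at a median transcript GC of 43.4%). OAS1, which senses double-stranded RNA, was at 4.33 against 24.3 FPKM, the antiviral SAMD9 at 3.22 against 19.4 FPKM and the membrane protein IFITM3 at 46.5 against 141 FPKM. With 5 FPKM required in both groups the median was -0.20. The transcription factor IRF1 was at 51.8 against 34.3 FPKM.

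The NF-kB group went both ways. 5 of 37 genes were higher and 10 lower. The feedback inhibitors NFKBIA, NFKBIE and TNFAIP3 were at 704 against 253, 17.5 against 7.67 and 59.1 against 18.7 FPKM. Complement C3 was at 74.8 against 416 FPKM, the acute phase protein SAA1 at 1133 against 4271 FPKM, and the chemokines CXCL2 and CCL28 at 1.18 against 6.52 and 2.01 against 10.6 FPKM. IL15 was at 6.02 against 1.40 FPKM. None of 14 HLA class I and antigen processing genes was higher and 1 was lower, PSMB8. B2M, the light chain of class I molecules, was at 1538 against 2049 FPKM.

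At the ends of the order stood genes of these families and some of none. The order was taken over members that reached 5 FPKM under both treatments, without genes that hold another, small RNA gene in their span; small RNA genes themselves stayed in. ADRBK2, a receptor kinase, led it at 73356 against 5.81 FPKM, followed by AKIRIN2, a nuclear protein, at 10314 against 270.2 FPKM. Their log2 ratios were 13.62 and 5.25, beside 0.10 and 2.15 in the NOTCH1-labelled line. Whether such single values are failed estimates was not tested. The 15 highest ratios also included the stress genes PPP1R15A, HERPUD1 and ATF3. Further members of that end were DFFB, the nuclease of apoptotic DNA cleavage, at 158 against 12.7 FPKM, and SLC9A3R1, a scaffold of apical membranes, at 85.7 against 10.9 FPKM. CDKN3, a phosphatase of CDKs, was there too, at 79.1 against 11.6 FPKM. In the NOTCH1-labelled line the log2 ratio was -1.38 for DFFB, -4.66 for SLC9A3R1 and 5.54 for CDKN3. The table lists DFFB on chr1:3773844-3801993 and CDKN3 on chr14:54863566-54886936 (hg19). The 15 lowest included SEPP1, the plasma selenium carrier, at 11.2 against 123 FPKM, and GRAMD4 at 7.21 against 78.5 FPKM, and 7 small nucleolar RNAs, such as SNORD59A at 599 against 15318 FPKM. SNORD116-8 and SNORD116-23, at 315 against 5132 and 213 against 2381 FPKM, are listed on the same locus, which carries 83 rows of the table.

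Protein-coding genes had a median log2 ratio of -0.21 (8149 genes), and processed pseudogenes -0.20 (112 genes). Other classes lay farther apart, with no test of the difference. The median of long intergenic RNAs was 0.96, and 32 of 67 were higher and 7 lower. These 67 are the ones with a ratio among 99 members of the class, and the rest were listed at 0 in a group. Small nucleolar RNAs had a median of -1.02, with 38 of 74 lower and 6 higher. The nuclear RNAs MALAT1 and NEAT1, which both hold an annotated small RNA, stood at 1969 against 1039 and 167 against 113 FPKM.

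Of the 787 members listed at 0 in a group, 587 were at 0 with DMSO and 200 with ginkgolic acid, and a listed 0 can be a failed estimate. Protein-coding genes were 9 of the first and 1 of the second. The highest level opposite a listed 0 was that of J01415.5, at 17576 FPKM with ginkgolic acid, and in the other direction that of RNY5, a Y RNA, at 1699 FPKM with DMSO.

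The same families in the NOTCH1-labelled line are set side by side without a test of the difference. That line carries an overexpressed intracellular domain of NOTCH1, and its levels come from a separate deposited table. There 19.5% of 10018 genes with a ratio were higher by the same rule and 9.77% lower. The medians of the mitotic kinases and cyclins (3.56 beside 1.55 in MCF10A) and of the integrated stress response (2.40 beside 1.15) were on the same side of 0 in both lines. Ribosome biogenesis (-0.47 beside -0.60) and interferon-stimulated genes (-0.34 beside -0.81) were below 0 in both. The median over genes of any list was 0.40 in that line beside -0.23 in MCF10A. The G1 cyclin list (0.37 beside -1.06) and the desmosome and adherens list (0.36 beside -0.89) were on opposite sides of 0, as were the cornified envelope (0.38 beside -1.97) and keratin genes (0.68 beside -1.97). Of these 4 lists, those other than the keratins lay near the median over genes of any list in the NOTCH1-labelled line. The single genes given here were chosen after their values were seen. KRT16 had a log2 ratio of -2.01 in MCF10A and 2.67 in the NOTCH1 line, KLK5 -2.40 and 1.37, S100P -1.52 and 1.79, and MMP14 -1.05 and 1.48. EPGN (-2.83 and -0.40), MMP7 (-4.58 and -3.01) and C3 (-2.48 and -2.26) were below 0 in both.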

How the data were processed

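Per the labels' protocols, an RNeasy kit gave the RNA of the MCF10A cells, and libraries came from the ScriptSeq Complete Gold kit. The submitters' processing notes name TopHat2 2.0.8b, Bowtie2 2.1.0, Cufflinks 2.1.1, Cuffdiff 2.1.1 and the hg19 build. The values are FPKM, 1 per gene and group, as deposited by the authors. What annotation and settings were used, and how each pair of samples became 1 value, is not given in the sources used here; depth per sample is unknown.

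From these values the log2 ratio of ginkgolic acid over DMSO was computed with no pseudocount in Python 3.11.15 (numpy 2.4.6, pandas 2.3.3, matplotlib 3.10.9), and the code was tested on simulated data. With 1 value per group no test was run. GENCODE 29 gave gene type, length, GC content and small RNAs by symbol (9134 of 10378 members matched), and RefSeq (GRCh38.p14) gave promoters for 6939 members. GRCh38 coordinates were used only for those promoters. The promoters of every list were searched for 9 motifs. Among these, TGATGNAAN, TGACNNNGC, TCACNCCAC and CACGTG are not reported here.

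The members and gene lists were chosen with earlier results of these data known. Pseudogenes and unrelated symbols were taken out of lists, and sublists were chosen, after values were seen. Genes were named by rule: the 15 highest and 15 lowest ratios, in each list the largest 2-fold gaps (up to 10) and up to 4 with the highest level, a fixed set of regulators, and up to 5 genes listed at 0. Some genes the rule names are not reported here. Other genes named, among them CCNB2, UBE2S, MIS18A, PPL, EVPL, NFKBIE, PKM and those with gaps under 2-fold, were chosen after their values were seen. The alternatives were other minimum levels, a pseudocount, joined rows kept, short loci left out, median subtraction, leaving out genes that hold a small RNA, the mean in place of the median, centring by GC content and protein-coding genes only.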

Additional observations from a re-analysis of the deposited data

How the results depend on the processing

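No paired analysis was possible because the table holds 1 pooled value per group, and no sample could be left out for the same reason. With a minimum of 1 FPKM, 4324 genes were 2-fold higher and 2759 lower (61.0% higher), and median log2 ratios became -0.65 for keratins, -1.34 for the cornified envelope and 0.78 for matrix proteases, and turned from -0.56 to 0.24 for the EGF family and from -0.44 to 0.17 for xenobiotic genes. With 5 FPKM in both groups, 568 were higher and 925 lower, since fewer genes enter, and the medians were 0.30 for kinesins, -1.16 for the cornified envelope and -0.20 for interferon-stimulated genes. A minimum of 10 FPKM left 749 higher. A pseudocount of 1 FPKM, with which members listed at 0 enter, gave 1618 higher and 1601 lower (50.3% higher). Subtracting the median ratio of genes at 5 FPKM or more in both groups (-0.16) made 53.04% of the 2-fold genes higher. Without genes that hold a small RNA the median was -0.64 in place of 0.18 for the E2F and RB list and 0.19 for matrix proteases, whose mean was -0.18. In 2 alternatives chosen after seeing the data, centring by GC content left 1021 lower (52.6% of 2-fold genes higher) and protein-coding genes alone gave 732 higher; the cause was not tested. Centring by GC content changed the sign of 14 of 55 list medians. Of 7 lists with a median of at least 1 in size, all but the matrix proteases kept their sign under the 11 settings, from 1.36 to 1.71 for mitotic kinases and 1.13 to 1.67 for the integrated stress response. The unknown depth limits what low levels can show.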
